A study of Mus musculus with 3 samples.

Results

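The cell cycle genes described here are 40 genes fixed as a list, of which all 40 were among the 31053 genes of the deposited RNA table. They were split by textbook role into 16 genes of S phase, when DNA is copied, and 22 genes of G2 and mitosis (G2/M), when chromosomes are segregated. Stmn1, a microtubule regulator, and Hmgb2, a chromatin protein, were put in neither phase list. Levels were read in 12421 cells of 13 deposited clusters. Clusters 0, 1, 3, 4 and 5, called the 5 large clusters here for their joint size, held 8408. The other 8 held 4013. The naive group was 2 brains of C57BL/6 mice without tumours. The metastasis group was 2 brains of mice that had received cells of the breast cancer line E0771, of mouse origin, through a carotid injection about 2 weeks before and carried brain metastases of it. Per the series' design text all mice were female and 2 to 3 months old, and no transgene or drug is named. The labels describe the input as 1 hemisphere of a perfused brain, digested with papain and enriched for mononuclear cells on Percoll. Each brain's cells carried their own hashing antibody and all were run as 1 pooled 10x 3' v2 library. The design text speaks of more pooled samples than the 4 hashing antibodies with deposited calls, and only those 4 brains were read. The labels do not say whether the suspensions were prepared apart, so a p-value here reflects the spread between suspensions, which may be technical.

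Cells copy their DNA after cyclin E with CDK2 releases E2F factors from the retinoblastoma protein, which turns on genes for the replicative helicase (Mcm2 to Mcm7), its sliding clamp (Pcna), nucleotide synthesis (Rrm1, Rrm2, Tyms, Tk1) and ligation (Lig1). Later a complex of B-MYB, FOXM1 and MuvB turns on the genes of mitosis, among them cyclins A and B, the kinase Cdk1, the Aurora and Polo kinases, centromere proteins and the spindle checkpoint. In the adult brain most neurons, endothelial cells and choroid plexus epithelium do not divide, while grafted carcinoma cells and some leukocytes do.

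The promoters of both lists were read from RefSeq (GRCm38.p6) as 250 bases before to 50 after the annotated start, and 33 of the 40 members had an entry. Letters of an E2F site (TTTGGCGC, TTTCCCGC, TTTCGCGC or TTTGCCGC, either strand) stood in 6 of 13 S promoters (Lig1, Mcm3, Mcm5, Mcm6, Mcm7 and Pclaf), in 1 of 19 G2/M promoters (Cdk1) and in 2.26% of all 32851 promoters. Letters of a CHR, the element that MuvB binds (TTTGAA or TTCGAA, either strand), stood in 2 of 13 S promoters, in 14 of 19 G2/M promoters and in 19.2% of all. The CCAAT box stood in 9 of 13, 17 of 19 and 37.4%. These are matches of letters, not shown sites. To let the difference be seen, the 160 bases before the start are printed for 2 helicase genes with E2F letters and 4 mitotic genes with CHR letters, 5′ to 3′ on the gene's strand. Capitals mark the E2F, CHR and CCAAT letters, and in Mcm5 and Mcm6 a pair of E2F matches on opposite strands overlaps.
Mcm5: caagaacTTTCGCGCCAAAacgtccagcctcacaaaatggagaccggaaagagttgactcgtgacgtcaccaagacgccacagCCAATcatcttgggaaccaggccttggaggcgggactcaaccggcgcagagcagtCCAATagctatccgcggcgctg
Mcm6: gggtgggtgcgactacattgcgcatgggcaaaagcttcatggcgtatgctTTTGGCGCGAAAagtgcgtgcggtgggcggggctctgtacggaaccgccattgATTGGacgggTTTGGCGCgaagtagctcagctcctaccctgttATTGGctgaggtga
Cdk1: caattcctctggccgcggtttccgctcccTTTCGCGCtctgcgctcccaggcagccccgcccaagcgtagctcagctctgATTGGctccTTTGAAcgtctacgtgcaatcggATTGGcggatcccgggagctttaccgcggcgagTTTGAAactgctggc
Cdc20: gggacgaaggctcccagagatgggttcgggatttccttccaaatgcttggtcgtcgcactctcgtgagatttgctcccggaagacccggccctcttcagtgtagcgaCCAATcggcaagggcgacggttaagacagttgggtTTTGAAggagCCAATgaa
Kif11: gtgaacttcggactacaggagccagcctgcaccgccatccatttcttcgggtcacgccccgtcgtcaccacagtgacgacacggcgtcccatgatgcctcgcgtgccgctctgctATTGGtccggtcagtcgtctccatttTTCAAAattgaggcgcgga
Mki67: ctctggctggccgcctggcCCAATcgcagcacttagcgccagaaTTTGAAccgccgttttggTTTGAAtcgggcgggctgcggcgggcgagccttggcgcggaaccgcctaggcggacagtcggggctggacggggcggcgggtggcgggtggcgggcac
The stretches lie upstream of the annotated transcripts, at chr8:75109349-75109508 on the plus strand for Mcm5, chr1:128359706-128359865 on the minus strand for Mcm6, chr10:69352913-69353072 on the minus strand for Cdk1, chr4:118437344-118437503 on the minus strand for Cdc20, chr19:37376222-37376381 on the plus strand for Kif11 and chr7:135716380-135716539 on the minus strand for Mki67. Cdk1 alone of the 6 carried both E2F and CHR letters.

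The 4 brains differed widely in depth. The naive brains held 572 and 315 cells with a median of 1393.5 and 1230 UMIs (unique molecular identifiers, 1 per captured RNA molecule) per cell, and the brains with metastases held 5360 and 6174 cells with medians of 7294 and 7707.5. Of the naive cells, 79 and 23 lay in the 5 large clusters, although those brains carried no tumour per the labels. What these droplets are was not tested. The brains with metastases held 3946 and 4360 cells there. Clusters 0, 1, 3, 4 and 5 had been proposed as tumour-like. Of 18 carcinoma markers listed for this work, Krt8 alone exceeded the remaining cells by 1 log2 unit or more in clusters 0, 1, 3 and 5. None did in cluster 4. This limit was hard to reach. Over the 5 clusters together, the 50 leading genes with cycle genes left out ran from log2 1.22 (Esx1) to 0.95 (Rps2). The markers therefore do not settle the name, and the clusters are called large for their joint size. Singly they were not the 5 largest. Cluster 2 held 718 and 1063 cells in metastasis 1 and 2, and cluster 5 held 253 and 281. Cluster 6 was endothelial-like (10 of 10 markers, with 4 of 9 mural markers), clusters 7 and 9 choroid plexus-like (8 of 9), cluster 11 mural-like (5 of 9) and cluster 2 monocyte-like (10 of 11, with 7 of 10 macrophage markers). Cluster 8 held 6 of 11 T cell, 3 of 8 NK cell and 5 of 11 monocyte markers and was led by MHC class II genes, cluster 10 held 2 markers only, and cluster 12 held all 11 microglia markers but was led by the neutrophil genes S100a9, S100a8 and Camp; these 3 stay unnamed.

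In the 5 large clusters the whole list was expressed, and the G2/M genes were more abundant than the S genes. Levels are given as CPM, the gene's UMIs per 1000000 UMIs of the cells summed, and since each UMI marks a transcript's 3′ end they were set side by side without a length term. Per-brain values follow the order naive 1, naive 2, metastasis 1, metastasis 2. The 16 S genes summed to 1050, 954, 1022 and 1020 CPM and the 22 G2/M genes to 2501, 2120, 2469 and 2326 CPM. The naive values rest on 79 and 23 cells. S over G2/M was 0.41 and 0.44 in the brains with metastases, and both lists lay within a narrow band across all 4 brains.

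Among the S genes, Tk1, the thymidine kinase that salvages thymidine, had the highest mean over the brains with metastases, at 137, 148, 116 and 149 CPM, though Pclaf was above it in metastasis 1. Pclaf, a PCNA-binding protein, stood at 105.3, 21.2, 124 and 123 CPM, and Gmnn, the geminin that blocks relicensing, at 128, 74.2, 114 and 107 CPM. The groups overlapped for Tk1 and Gmnn, while for Pclaf both naive brains lay below both brains with metastases; naive 2 was the lowest for Pclaf and Gmnn, on 2 and 7 UMIs. The nucleotide reductase subunits Rrm2 (91.7 ± 13 CPM, mean ± SD over the 2 brains with metastases, as below) and Rrm1 (72.0 ± 3.3) and the thymidylate synthase Tyms (68.1 ± 11) stood in the middle. The 6 helicase subunits ran from Mcm4 at 25.9 ± 0.87 to Mcm7 at 55.7 ± 3.4 CPM. Pcna stood at 35.1, 53.0, 38.7 and 35.4 CPM. The cyclins E, which start S phase, were low, with Ccne1 at 36.9 ± 2.3 and Ccne2 at 17.3 ± 1.8 CPM, and Lig1, the ligase that joins replicated strands, stood at 58.2 ± 0.14.

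Among the G2/M genes, Birc5 (survivin, of the chromosomal passenger complex) was the most abundant, at 408, 286, 452 and 415 CPM. Cenpa, the centromeric histone, stood at 323, 297, 278 and 262 CPM, and Ube2c, the ubiquitin-conjugating enzyme of the anaphase-promoting complex, at 240, 223, 267 and 259 CPM. Cks2, a small CDK partner, stood at 278, 191, 238 and 245 CPM. The groups overlapped for Cks2. Both naive brains lay below both brains with metastases for Birc5 and Ube2c and above both for Cenpa. Cdk1 stood at 120 ± 4.3 CPM over the 2 brains with metastases, and its cyclins Ccna2, Ccnb2 and Ccnb1 at 103 ± 5.6, 103 ± 9.7 and 63.2 ± 1.1 CPM. Mki67, whose protein is the usual stain for dividing cells, was the least abundant of all 40, at 13.3, 63.6, 13.1 and 11.3 CPM on 11, 6, 540 and 584 UMIs. Naive 2 stood apart for Mki67 on those 6 UMIs. Hmgb2 and Stmn1 were high, at 449, 509, 356 and 435 CPM and at 311, 180, 184 and 260 CPM, and both were higher in metastasis 2 than in metastasis 1.

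**Figure D1:**
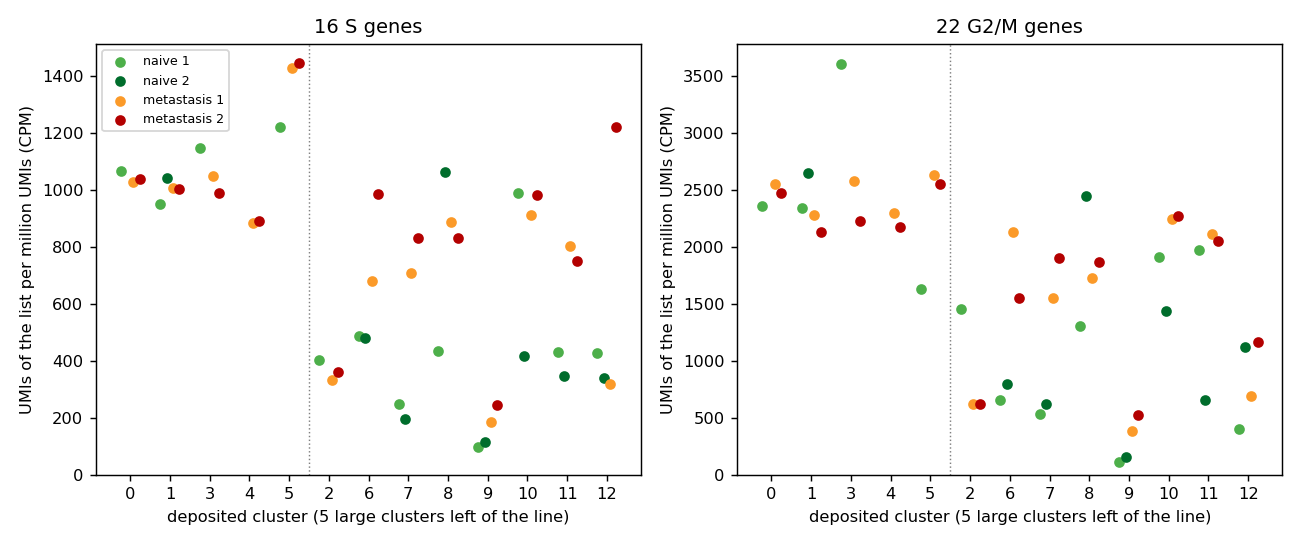
Summed level of the 16 S genes (left) and 22 G2/M genes (right), in UMIs of the list per 1000000 UMIs (CPM), for each deposited cluster and brain with at least 10 cells. The dotted line parts the 5 large clusters from the other 8. Each point is 1 brain. In the brains with metastases the large clusters lie between 886 and 1446 CPM for the S genes and between 2125 and 2632 CPM for the G2/M genes, and cluster 9 lies lowest.

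The levels of the brains with metastases were compared with those of the naive brains over the large clusters with edgeR's quasi-likelihood test on UMIs summed per brain. Of the 40 members, all of which passed the filter on low counts, 0 were higher and 0 lower at an adjusted p under 0.05, against 0% and 0.235% of the 11467 genes tested. DESeq2 also called 0. At an unadjusted p under 0.05 edgeR counted 3 of the 40 (Top2a and Pclaf with higher and Hmmr with lower values in the brains with metastases), beside 527 of all 11467 genes, which is a like share. The median log2 difference of the 40 members was -0.01, and that of all genes 0.07. For Mki67 the log2 difference was -0.65 ± 0.46 (SE), for Top2a 0.44 ± 0.21, for Pcna 0.03 ± 0.30, for Mcm5 0.05 ± 0.30, for Ccnb1 0.09 ± 0.25, for Hmgb2 -0.17 ± 0.18 and for Stmn1 -0.24 ± 0.20, each with an adjusted p of 0.98 or 1.0 in edgeR. The 79 and 23 naive cells limit this test. Those brains carried no tumour per the labels, and whether these droplets carry a wrong hashing call was not tested. Were they cells of the brains with metastases, no difference could appear. The count of 0 therefore does not show that the conditions are alike.

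Each cell of the large clusters was then classed by its leading list after thinning to 2000 UMIs. A cell was S-high or G2/M-high with at least 3 UMIs of that list and more of it than of the other, tied with equal numbers, and low with fewer than 3 of both. Because the G2/M list is more abundant (a median of 4 UMIs against 2 for the S list), these shares are not shares of cells in a phase. In metastasis 1, 556 of 3821 cells (14.6%) were S-high and 2242 (58.7%) G2/M-high. In metastasis 2 the counts were 561 (13.2%) and 2277 (53.7%) of 4238 cells. Low cells made up 22.2% and 29.0%. As means over the 2 brains, S-high cells were 13.9 ± 0.93%, G2/M-high cells 56.2 ± 3.5%, tied cells 4.31 ± 0.39% and low cells 25.6 ± 4.8% (SD, n = 2). Of 8059 cells, 2105 (26.1%) had their leading list at 2 or 3 UMIs, next to the limit of the class, and 322 had no UMI of either list. Without thinning, 19.7% of cells were S-high and 71.6% G2/M-high.

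Cluster 5 had the highest S-high share at 2000 UMIs and under each other setting but 5000 UMIs, where it did not stand apart. S-high cells were 13.6 ± 1.7% in cluster 0, 14.2 ± 1.4% in cluster 1, 13.9 ± 0.82% in cluster 3, 10.0 ± 1.9% in cluster 4 and 21.5 ± 2.2% in cluster 5 (SD, n = 2). In cluster 5, 98 and 86 cells were too shallow and left out, against 155 and 195 kept. At 1000 UMIs the S-high share was 13.3% in cluster 5, against 5.97% to 7.21% in clusters 0, 1, 3 and 4. With a minimum of 5 UMIs it was 14.1% against 2.82% to 7.36%, and without thinning 23.5% against 14.0% to 20.7%. At 5000 UMIs the S-high share was 20.4% in cluster 5, 20.6% in cluster 1, 19.03% in cluster 3, 18.3% in cluster 0 and 16.2% in cluster 4. Median depths in cluster 5 were 2748 and 2864 UMIs, so most of its cells were too shallow at 5000. G2/M-high cells lay between 53.4 ± 2.9% in cluster 1 and 59.1 ± 1.4% in cluster 0, and low cells were fewest in cluster 5, at 17.6 ± 1.2%. Metastasis 1 had the higher G2/M-high share in each of the 5 clusters, from 60.1% against 58.0% in cluster 0 to 59.0% against 48.6% in cluster 3. The exact (Clopper-Pearson) 95% intervals in cluster 3, 53.4 to 64.4% and 45.2 to 52.0%, did not overlap, and they cover counting error only. The clusters were made from all genes, the members included, so these are descriptions with no test. In naive 1, 12 of 71 cells were S-high and 45 G2/M-high, and in naive 2, 0 and 9 of 13, which allows an S-high share of up to 24.7% by the exact interval.

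**Figure D2:**
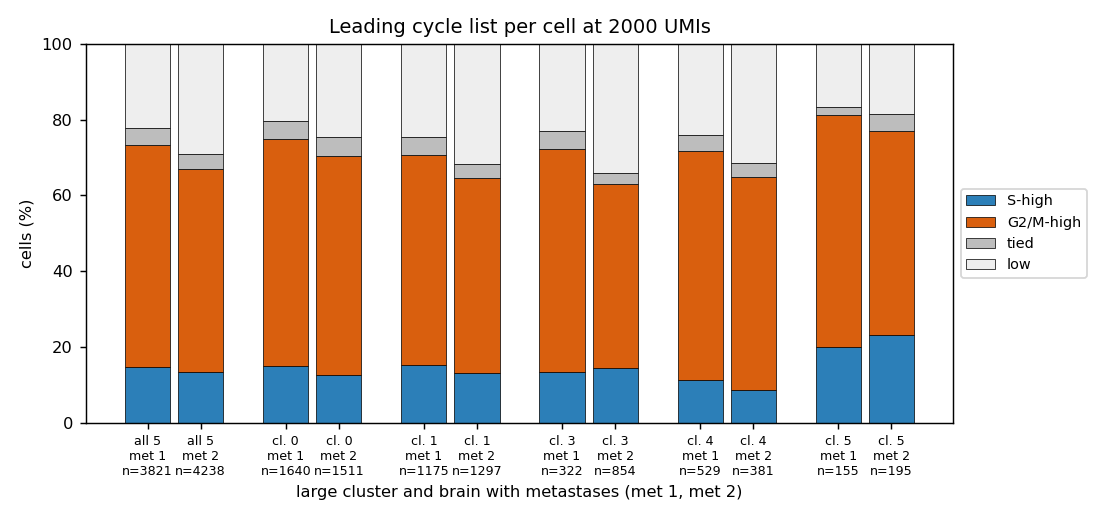
Share of cells (%) in each class at 2000 UMIs per cell, for the 5 large clusters together and singly, in the 2 brains with metastases (met 1, met 2); n is the number of cells at that depth. G2/M-high cells are the largest class in every bar, and the S-high part is tallest in cluster 5, with 31 of 155 cells and 45 of 195 cells.

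Sequencing depth before thinning differed modestly between classes. The medians were 10118.5 and 11840 UMIs in S-high cells, 11205.5 and 11958 in G2/M-high cells and 9122.5 and 10227 in low cells of metastasis 1 and 2. The part of depth in the class of a cell was not tested. A list of 50 genes that led in the large clusters over all other cells, with cycle genes left out, was at 29854 to 31226 CPM in all 3 classes of both brains.

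Each gene was next placed between the phases, by classing the cells with that gene left out and comparing its unthinned CPM in G2/M-high and S-high cells. Of the 16 S members 15 were lower in G2/M-high cells in both brains, and of the 22 G2/M members 21 were higher. The exceptions were Tk1, at 0.07 ± 0.15 (mean log2 ratio ± SD, n = 2), and Top2a, the topoisomerase that untangles replicated DNA, at 0.05 ± 0.09. Since members are correlated with each other this is a description. The steepest G2/M members were Cdc20 (1.95 ± 0.20), the activator of the anaphase-promoting complex, Plk1 (1.64 ± 0.27), the Polo kinase, Cenpe (1.62 ± 0.18), a kinetochore motor, Hmmr (1.61 ± 0.19), a spindle protein, and Ube2c (1.56 ± 0.08). Cdc20 stood at 37.4 and 41.5 CPM in S-high cells and at 163 and 148 CPM in G2/M-high cells of metastasis 1 and 2. The shallowest besides Top2a were Cdk1 (0.31 ± 0.05) and Aurkb (0.32 ± 0.16).

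Among the S members, the helicase and cyclin E genes lay furthest on the S side, with Mcm4 at -0.93 ± 0.07, Ccne2 at -0.88 ± 0.05, Mcm3 at -0.78 ± 0.02 and Mcm6 at -0.76 ± 0.09. Mcm4 stood at 44.2 and 41.8 CPM in S-high and at 21.9 and 22.2 CPM in G2/M-high cells. Pclaf (-0.26 ± 0.18), Tyms (-0.15 ± 0.06) and Rrm1 (-0.10 ± 0.12) lay near 0, and at a thinning depth of 5000 UMIs their signs turned, to 0.04, 0.02 and 0.05. Hmgb2 lay on the G2/M side (0.38 ± 0.09) and Stmn1 at 0.01 ± 0.10. In low cells every member was below the mean of the 2 phase classes. Ccne1 was nearest to it, at a log2 ratio of -0.14, followed by Ccnb2 at -0.30, Ccne2 at -0.31 and Mcm6 at -0.32. Rrm2 was at -0.996, Pclaf at -1.02, Hmmr at -1.95 and Nusap1, a spindle protein, at -2.06.

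**Figure D3:**
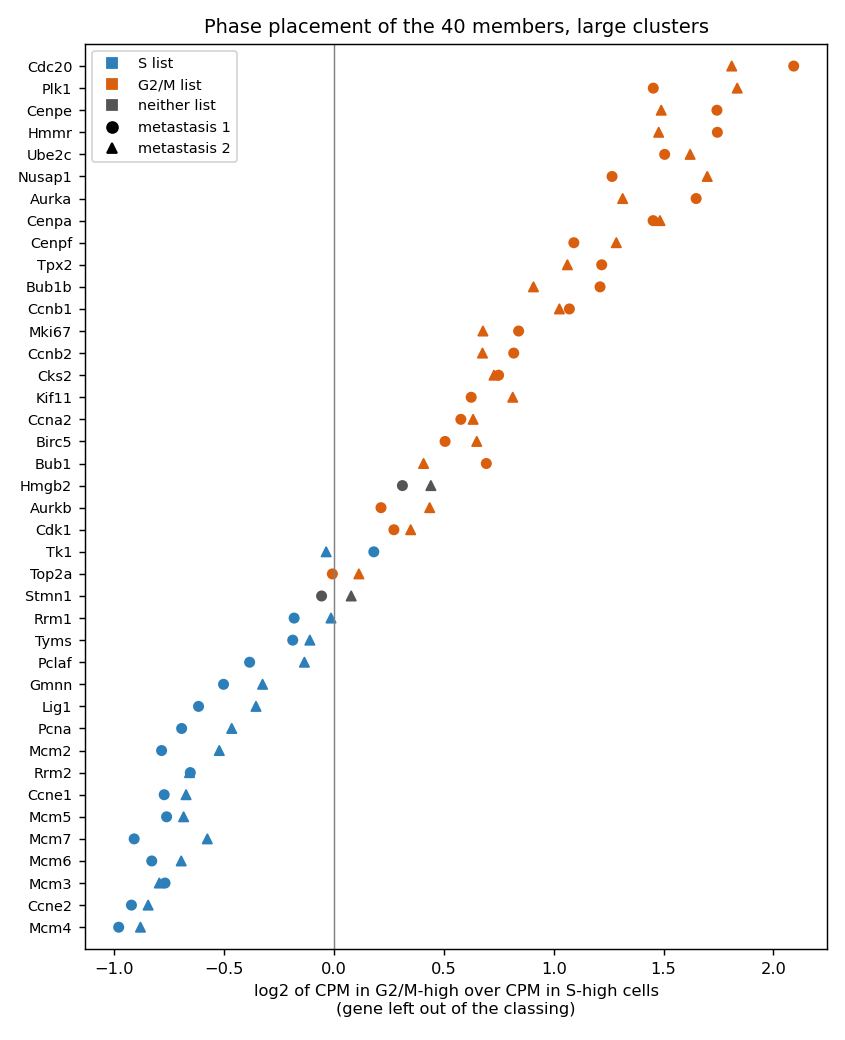
Log2 ratio of CPM in G2/M-high over CPM in S-high cells of the large clusters for each of the 40 members, the gene itself left out of the classing; circles are metastasis 1 and triangles metastasis 2. The S list (blue) lies left of 0 apart from Tk1 in metastasis 1, and the G2/M list (orange) lies right of 0 apart from Top2a in metastasis 1.

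A list of 54 regulators of the cycle, none of them members, was placed in the same way. In both brains 20 were higher and 22 lower in G2/M-high cells. Lowest were Cdc6 (-1.38 ± 0.18), which loads the helicase, E2f1 (-0.998 ± 0.09), the S phase activator, Cdc45 (-0.74 ± 0.09) and Gins2 (-0.68 ± 0.01), parts of the working helicase, and Cdt1 (-0.61 ± 0.07), the other loader. Highest were Cdc25c (1.39 ± 0.26), the phosphatase that activates Cdk1, Kif23 (1.34 ± 0.03) and Prc1 (0.99 ± 0.23) of the spindle midzone, and Cdca8 (0.99 ± 0.005) of the passenger complex. Foxm1, an activator of mitotic genes, was at 0.86 ± 0.12 and Mybl2 (B-MYB) at -0.37 ± 0.17. The genes of early G1 lay near 0, with Ccnd1 at 0.14 ± 0.02, Ccnd2 at -0.13 ± 0.05, Cdk4 at -0.07 ± 0.02 and Cdk6 at -0.12 ± 0.03. Ccnd2 and the CDK inhibitor Cdkn1a were higher in low cells, at log2 0.30 and 0.20 over the mean of the phase classes.

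The large clusters held no UMI of the CDK4/6 inhibitors Cdkn2a and Cdkn2b, nor of Mycn. The 8408 cells carried 94035860 UMIs, so a count of 0 allows up to 0.032 CPM for each. In the other 4013 cells, with 11694681 UMIs, Cdkn2a had 3 UMIs, Cdkn2b 20 and Mycn 2. Cdkn2b was found mainly in endothelial-like cluster 6, with 3, 1, 3 and 6 UMIs in the 4 brains. The CDK inhibitors Cdkn1a, Cdkn2d, Cdkn1b and Cdkn2c were all measured in the large clusters, at 154 ± 5.4, 36.5 ± 3.8, 18.6 ± 0.51 and 11.9 ± 2.0 CPM, with Trp53 at 151 ± 7.0, Rb1 at 3.59 ± 1.1 and Myc at 79.5 ± 4.9 CPM (SD, n = 2 brains with metastases). Cdk4 and Ccnd2 were the most abundant regulators, at 438 ± 31 and 317 ± 45 CPM.

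Members of one list went together only weakly from cell to cell. Over cells of the large clusters thinned to 5000 UMIs (3087 in metastasis 1 and 3508 in metastasis 2), the median Pearson r was 0.084 and 0.133 for the 231 pairs of G2/M genes, 0.054 and 0.058 for the 120 pairs of S genes and -0.013 and 0.009 for the 352 mixed pairs. The highest values in both brains were Cenpa with Cdc20 (0.365 and 0.334) and Birc5 with Ube2c (0.317 and 0.363). These cells share 1 library and the counts are sparse, so the values are a description.

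Cluster 5 differed from the other large clusters in which members it held. Its cells had medians of 2748 and 2864 UMIs and 9.25% and 8.84% mitochondrial UMIs in metastasis 1 and 2, against 13259.5 and 15283 UMIs and 1.15% and 0.98% in cluster 0, and the part of RNA quality in what follows was not tested. Relative to cluster 0, 23 of the 40 members were higher in both brains, 8 lower and 9 of mixed sign. Over all genes at 10 CPM or more in cluster 0, 67.4% and 69.0% were higher in cluster 5, with a median log2 of 0.34 and 0.43, so a share of members above 0 is not particular to them. Mki67 had the highest ratio, with 12.9 and 11.4 CPM in cluster 0 and 36.2 and 38.4 CPM in cluster 5 (log2 1.62 ± 0.19, SD, n = 2), and it lay between 7.6 and 12.2 CPM in clusters 0, 1, 3 and 4. The helicase genes Mcm4 (1.18 ± 0.32), Mcm3 (1.14 ± 0.10), Mcm6 (1.13 ± 0.13) and Mcm7 (1.11 ± 0.12) and the spindle motor Kif11 (1.15 ± 0.17) came next.

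Of the 8 members lower in cluster 5 in both brains, 5 were G2/M genes, and 4 of these are given here with their values. Ube2c stood at 186 and 138 CPM there against 288 and 297 in cluster 0 (log2 -0.87 ± 0.33), Ccnb2 at 57.9 and 59.6 against 95.8 and 114 (-0.83 ± 0.15), Cenpa at 174 and 167 against 288 and 285 (-0.75 ± 0.03) and Birc5 at 324 and 290 against 462 and 446 (-0.56 ± 0.08). Other abundant G2/M genes were not lower: Top2a stood at 335 and 313 CPM in cluster 5 against 181 and 170 in cluster 0 (0.89 ± 0.003), Cenpf at 262 and 245 against 178 and 156 (0.61 ± 0.07), and Cks2 was of mixed sign. Both lists were divided in this way, since 11 of 16 S and 12 of 22 G2/M members were higher in both brains, while 1 and 5 were lower. The members that were higher had a median gene span of 26.7 kb and those that were lower 6.27 kb. Over the 40 members Spearman's rho of log2 ratio with span was 0.54, given across genes as a description.

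**Figure D4:**
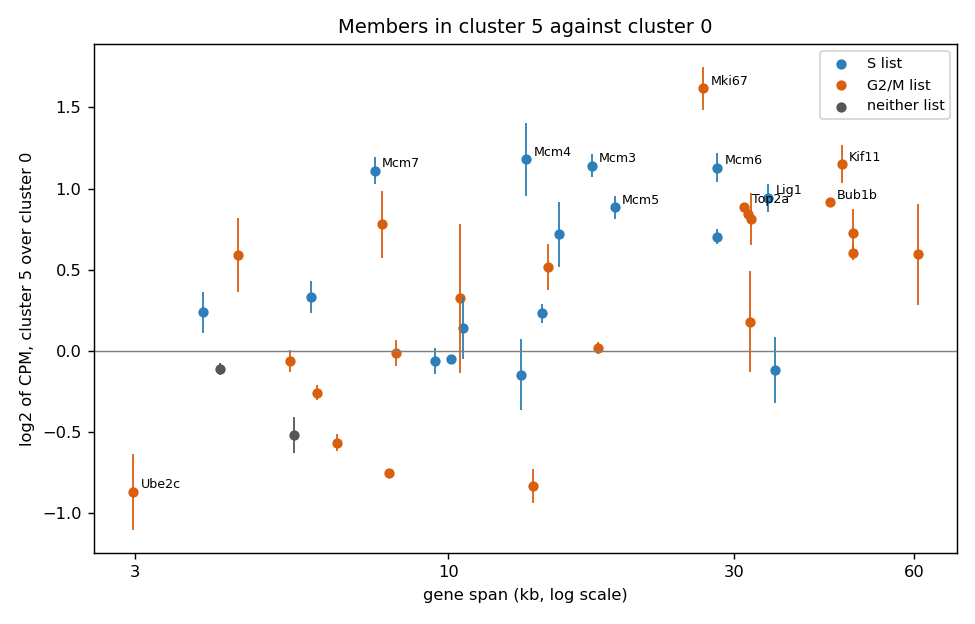
Log2 ratio of CPM in cluster 5 over cluster 0 for each of the 40 members, plotted against the gene's span in the genome (kb, log scale). Points are means of the 2 brains with metastases and lines join the 2 values. Mki67, at 1.62, is highest and Ube2c, at -0.87, lowest.

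In most brains of the other clusters the lists were lower than in the large clusters, and in clusters 6, 7 and 9 they moved with the 50-gene large-cluster list. Some came near the large clusters. Cluster 10 of metastasis 1 and 2 (54 and 112 cells) had the S genes at 911 and 983 and the G2/M genes at 2244 and 2265 CPM. Cluster 11 of these brains had the G2/M genes at 2113 and 2050 CPM, and cluster 6 of metastasis 2 the S genes at 985 CPM. The groups at or above the level of the large clusters were small. In cluster 8 of naive 2 (18 cells) the S genes stood at 1063 and the G2/M genes at 2446 CPM, in cluster 12 of metastasis 2 (15 cells) the S genes at 1223 CPM, and in cluster 2 of naive 2 (5 cells) the G2/M genes at 3197 CPM. Choroid plexus-like cluster 9 was lowest, with the S genes at 97.7, 114, 186 and 244 CPM and the G2/M genes at 113, 158, 381 and 523 CPM. The large-cluster list there stood at 2772, 3544, 5671 and 7523 CPM, so all 3 were higher in both brains with metastases. Cluster 7, the other choroid plexus-like cluster, had G2/M genes at 532, 620, 1549 and 1898 CPM with the large-cluster list at 6249, 5395, 20363 and 23974 CPM. In endothelial-like cluster 6 the G2/M genes were at 658, 800, 2130 and 1553 CPM and the large-cluster list at 9701, 11133, 22663 and 18358 CPM. In these clusters the brains with metastases did not overlap the naive brains for either quantity. The keratin Krt8 marked clusters 0, 1, 3 and 5, and the keratin Krt18 the choroid plexus-like clusters 7 and 9. Together they summed to 132, 155, 272 and 436 CPM in cluster 6 and to 346, 209, 401 and 612 CPM in cluster 7. Depth and mitochondrial share moved too in cluster 7, with medians of 2054, 1988.5, 3149 and 4910 UMIs and 8.94%, 12.9%, 4.79% and 1.74% mitochondrial UMIs. The part of any of these in the cycle genes was not tested.

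Because of this, the counts in clusters 6, 7 and 9 and the cycling shares are also given for droplets low in large-cluster RNA, those whose share of the 50-gene list was under 50% of the median of the large clusters. This split was chosen after the data were seen. The list is not confined to the large clusters, since it holds genes such as Gapdh, Eif5a and Rps2 and led there by log2 1.22 at most. Whether the split also leaves out dividing cells of the other clusters was not tested. In such droplets of cluster 6 the G2/M genes stood at 522, 677, 685 and 977 CPM and the large-cluster list at 7996, 8121, 8420 and 9463 CPM. In cluster 7 the G2/M genes were then at 227, 323, 334 and 285 CPM. In cluster 7 the brains then overlapped between conditions. In cluster 6 both brains with metastases stayed above both naive brains, with naive 2 and metastasis 1 next to each other at 677 and 685 CPM. Metastasis 1 was highest in all droplets and metastasis 2 in these.

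**Figure D5:**
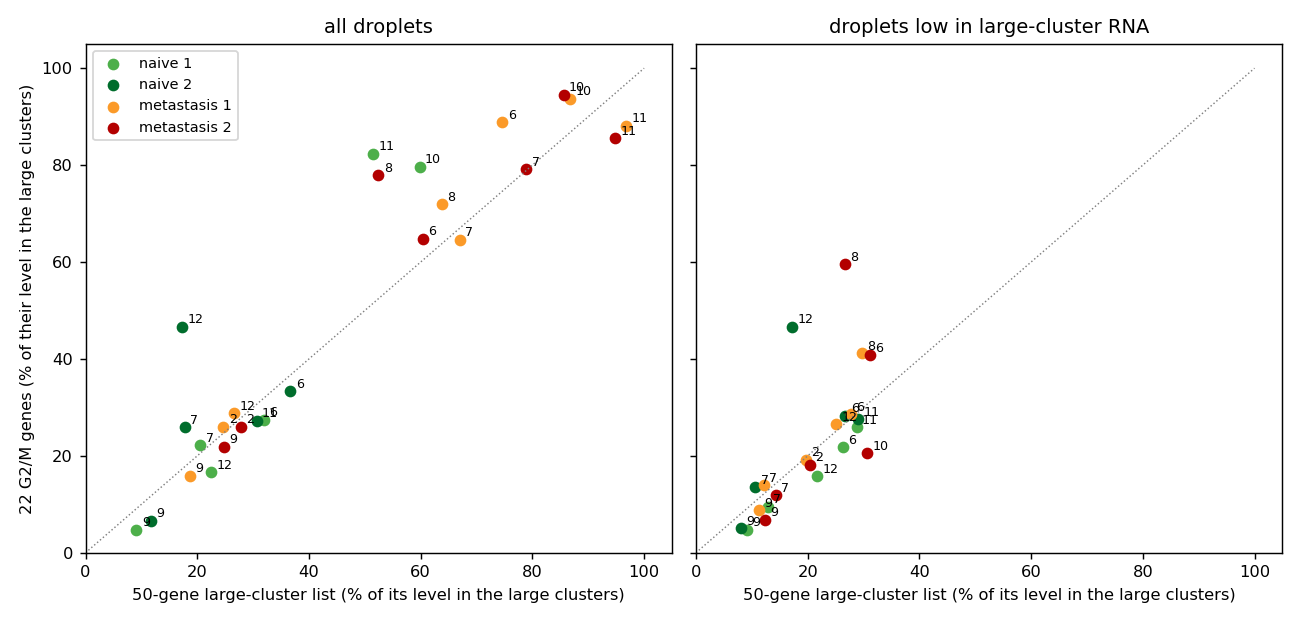
Summed level of the 22 G2/M genes against that of the 50-gene large-cluster list, each as a percent of its level in the large clusters, for the other 8 clusters and brains with at least 20 cells. The left panel holds all droplets and the right panel the droplets low in large-cluster RNA; numbers are clusters and the dotted line marks equal percents. Cluster 9 lies lowest in both panels; among low droplets the points furthest above the line are cluster 8 of metastasis 2 (59.5% of the G2/M level of the large clusters), cluster 12 of naive 2 (46.6%) and cluster 8 of metastasis 1 (41.2%), and others, such as cluster 6 of metastasis 2 (40.7%), lie above it by less.

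In endothelial-like cluster 6, 27 of the 40 members passed the filter and 4 were higher with metastases (edgeR, adjusted p under 0.05), against 2.34% of 4539 genes, and 0 were lower, against 5.24%. Values are TMM-scaled CPM, that is CPM after edgeR's correction of library sizes. Ube2c went from 79.5 and 61.9 to 321 and 179 (log2 1.79 ± 0.41 SE, adjusted p = 0.031), Cenpa from 65.1 and 51.6 to 269 and 132 (1.75 ± 0.47, 0.045), Top2a from 65.1 and 51.6 to 166 and 148 (1.40 ± 0.37, 0.042) and Hmgb2 from 195 and 247 to 430 and 448 (1.00 ± 0.26, 0.039). No brain with metastases overlapped a naive brain for these 4. Not passing were Ccnb1 (1.85 ± 0.59, edgeR adjusted p = 0.080), Stmn1 (0.27 ± 0.30, 0.63) and Pcna (-0.46 ± 0.46, 0.59), while Mki67 and Mcm5 were too sparse to test. Of the large-cluster list 13 of 50 genes were higher and 0 lower. Of the regulators tested, Cdk4 and the mitotic gene Cdca3 were higher and Cdkn1a lower. DESeq2 called 1 member, and leaving out naive 2 gave 8, leaving out metastasis 2 gave 2. In droplets low in large-cluster RNA 6 members passed the filter and 0 were called in either direction by edgeR (1 at an unadjusted p under 0.05, Hmgb2 with a log2 difference of 0.80 ± 0.28 SE), against 0% and 0% of 2430 genes.

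In choroid plexus-like cluster 7, 34 members passed the filter and 22 were higher, against 14.2% of 5963 genes, with 0 lower, against 16.9%. The 22 were 8 S genes (Pclaf, Tyms, Mcm3, Mcm5, Mcm7, Gmnn, Tk1 and Ccne1), 12 G2/M genes (Top2a, Birc5, Ccnb2, Ccna2, Cenpa, Cenpf, Tpx2, Ube2c, Plk1, Hmmr, Cks2 and Cdc20), Stmn1 and Hmgb2. Birc5 went from 118 and 118 to 272 and 283 TMM-scaled CPM (log2 1.24 ± 0.25 SE, edgeR adjusted p = 0.0064), Ccna2 from 16.3 and 8.4 to 68.7 and 66.6 (2.29 ± 0.49, 0.0079) and Mcm5 from 4.1 and 8.4 to 28.5 and 30.4 (2.38 ± 0.72, 0.030). Plk1 had 0 UMIs in both naive brains and 24 and 32 with metastases. It passed the filter through the brains with metastases alone, as a gene can when its counts suffice in 1 group. The log2 differences of the other S genes called were 2.62 for Mcm3, 1.96 for Ccne1, 1.89 for both Pclaf and Mcm7, 1.74 for Tyms and 1.45 for both Gmnn and Tk1. Those of the other G2/M genes called were 2.61 for Hmmr, 2.08 for Cdc20, 1.82 for Tpx2, 1.77 for Cenpf, 1.61 for Cenpa, 1.33 for Ccnb2, 1.21 for Ube2c and 1.01 for Cks2. So genes of both phases were higher in this cluster, from helicase subunits to the anaphase activator. Top2a (1.75 ± 0.44, edgeR adjusted p = 0.015), Stmn1 (1.41 ± 0.45, 0.036) and Hmgb2 (0.92 ± 0.26, 0.022) passed, and Ccnb1 (1.61 ± 0.57, 0.053) and Pcna (1.34 ± 0.56, 0.090) did not. Of the large-cluster list 47 of 50 genes were higher, and of 27 regulators tested 12 were higher, among them Cdk6, Ccnd1, Myc and Trp53, and 1, the CDK inhibitor Cdkn1c, lower. DESeq2 called 4 members, leaving out naive 1 gave 9 and leaving out metastasis 2 gave 10. In droplets low in large-cluster RNA 0 members were called, against 0.279% of 2147 genes higher and 0% lower. Hmgb2 alone passed the filter there, with a log2 difference of -1.02 ± 0.42 SE (edgeR unadjusted p = 0.029). In droplets without a Krt8 or Krt18 UMI 0 members were called too, but the share of all genes called in that fit was not counted. Krt18 marked this cluster itself, and that split left 69, 42, 63 and 38 of 135, 62, 153 and 148 droplets. The median depth in metastasis 2 fell from 4910 to 1698 UMIs. The part of this loss in the count of 0 was not tested.

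In cluster 9, the choroid plexus-like cluster with less large-cluster RNA, 5 members passed the filter, all 5 with higher values in the brains with metastases. The naive values of the 2 called lay under the limit of the filter. They entered the test through the brains with metastases alone. Hmgb2 (22.5 and 22.7 to 85.8 and 147 TMM-scaled CPM, log2 2.33 ± 0.46 SE, edgeR adjusted p = 0.0013) and Cks2 (11.3 and 11.3 to 52.5 and 57.2, 2.24 ± 0.60, 0.022) were higher, against 3.83% of 3473 genes, and 0 were lower, against 0.461%. Stmn1 did not pass (0.83 ± 0.45, edgeR adjusted p = 0.36), and 13 of 30 genes of the large-cluster list were higher. DESeq2 called 0 members, leaving out metastasis 1 gave 0, and leaving out naive 1 or metastasis 2 gave 1. Hmgb2 was the 1 member that passed the filter in droplets low in large-cluster RNA, on 4, 4, 27 and 18 UMIs (log2 1.29 ± 0.51, edgeR adjusted p = 0.30, unadjusted 0.012), against 1.2% of 2745 genes higher and 0.219% lower. In mural-like cluster 11, 18 members passed the filter and 0 were higher or lower (edgeR, 5 at an unadjusted p under 0.05, beside 736 of all 2620 genes, which is a like share; DESeq2 0), against 3.82% and 12.3% of 2620 genes, while 16 of 46 genes of the large-cluster list were higher. Top2a there had 2, 0, 29 and 49 UMIs (log2 2.07 ± 0.89 SE, edgeR adjusted p = 0.13), Hmgb2 a log2 difference of 0.49 ± 0.38 (0.44) and Stmn1 of 0.36 ± 0.54 (0.72). The regulators Cdkn1b and Cdkn1c, both CDK inhibitors, were lower there with metastases (log2 -2.95 ± 0.64 and -3.60 ± 0.59). The droplets of this cluster differed between conditions as a whole, with the large-cluster list at 15641, 9304, 29410 and 28806 CPM, medians of 814, 871, 9974 and 10370 UMIs and of 5.05%, 5.32%, 1.58% and 1.33% mitochondrial UMIs. The part of these in the changes was not tested, and with 6 droplets low in large-cluster RNA in each brain with metastases no fit was made in those.

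Cycling droplets of the other clusters were counted after thinning to 1000 UMIs, as those with at least 3 UMIs of the 38 phase genes. With 2 brains against 2, the smallest p an exact permutation test can give is 0.33, so no share could pass. In all droplets the share was 22.1 ± 1.3% with metastases against 14.0 ± 5.1% in naive brains in cluster 6, 26.8 ± 6.2% against 7.74 ± 5.0% in cluster 7, 51.0 ± 14% against 15.0 ± 7.1% in cluster 11, 46.6 ± 1.6% against 44.9 ± 25% in cluster 10 and 3.11 ± 1.5% in cluster 9, where 0 of 40 and 0 of 36 naive droplets were cycling, which allows up to 7.5% and 8.33% (3 counts of the total, as for each cycling share of 0). In clusters 2, 8 and 12 it was 6.95 ± 0.49% against 12.5 ± 18%, 31.8 ± 6.3% against 51.3 ± 16% and 8.82 ± 12% against 18.0 ± 17%, the naive values of clusters 2 and 8 resting on 6 and 13 droplets. For clusters 6, 7, 8, 9 and 11 the exact two-sided permutation p was 0.33 (0.533 adjusted over the 8 clusters), for cluster 12 it was 0.667 and for clusters 2 and 10 it was 1. Among droplets low in large-cluster RNA the choroid plexus-like clusters 7 and 9 together, an epithelium that should hold few dividing cells, held 3 cycling droplets of 221 in naive brains and 3 of 284 with metastases, means of 1.07 ± 1.5% and 1.03 ± 0.23%, at median depths of 2739 to 3676 UMIs before thinning. They are no floor for the other clusters, because they held less large-cluster RNA: the list was at 3586 and 3261 CPM in the droplets of clusters 7 and 9 that were not cycling, against 5916 in cluster 2, 8108 in cluster 6 and 8504 in cluster 8. Endothelial-like cluster 6 held 3 of 44, 3 of 30, 3 of 48 and 6 of 62, at median depths of 721 to 1221 UMIs. The 4 shares, 6.82%, 10.0%, 6.25% and 9.68%, overlapped between conditions. A further 87, 51, 70 and 35 droplets were too shallow to enter. Of the 15 cycling droplets 10 carried at least 3 endothelial marker UMIs, as did 129 of the 169 others. Endothelial markers summed to 3682 CPM in the cycling and 8520 CPM in the other droplets, and the large-cluster list was at 12069 CPM in the former and 8108 CPM in the latter, whose part was not tested.

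Monocyte-like cluster 2 was almost wholly from brains with metastases. Of its droplets low in large-cluster RNA 30 of 505 in metastasis 1 (5.94%, exact 95% interval 4.04 to 8.37%) and 39 of 714 in metastasis 2 (5.46%, 3.91 to 7.39%) were cycling. The choroid plexus-like clusters, lower in large-cluster RNA, had 1.19% and 0.86% in the same brains, with upper bounds of 4.23% and 4.71%. The intervals cover counting error only, and overlapped. Without thinning the cluster 2 shares were 16.4% and 15.5%, and those of the choroid plexus-like clusters 9.60% and 15.6% at a greater depth (3676 and 3610.5 UMIs in the median, against 1527 and 1438). All 69 of these cycling droplets had at least 3 UMIs of monocyte markers, as did 1146 of 1155 that were not cycling, and the median CD45 tag counts were 140 and 172. Neutrophil marker RNA was at 7049 CPM in the cycling and 317 CPM in the other droplets, though 3 of the 69 carried at least 3 such UMIs, and the large-cluster list was at 7176 and 5916 CPM; their part was not tested. They held 175 UMIs of Hmgb2, 98 of Stmn1, 71 of Pclaf, 70 of Birc5 and 37 of Top2a. Mki67 in the cluster's low droplets stood at 6.5 and 5.0 CPM and Top2a at 28.8 and 23.5 CPM, against 0 UMIs of Mki67 and 9.63 and 11.8 CPM of Top2a in cluster 9. In naive brains this cluster had 5 droplets of that depth, of which 0 were cycling, too few to compare.

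Cluster 8, with T cell, NK cell and MHC class II genes, also held cycling droplets low in large-cluster RNA. They were 14 of 80 in metastasis 1 (17.5%, exact 95% interval 9.91 to 27.6%) and 31 of 98 in metastasis 2 (31.6%, 22.6 to 41.8%), and 2 of 4 and 4 of 7 in the naive brains. More of the cycling droplets led with G2/M than with S genes, 10 against 4 in metastasis 1 and 22 against 8 in metastasis 2. The G2/M list is the longer one, and the lean was not particular to cluster 8. In low droplets of cluster 2 it was 20 against 6 in metastasis 1 and 26 against 10 in metastasis 2. Over the 4 brains 16 of 51 cycling droplets (31.4%) carried at least 3 T cell marker UMIs, against 18 of 138 (13.04%) of the others. Of the same droplets, NK cell markers were at that level in 8 of 51 against 35 of 138, dendritic cell markers in 13 against 56 and monocyte markers in 30 against 96; none of these differences was tested. The median CD45 tag counts were 93 and 53.5. They held 143 UMIs of Hmgb2, 59 of Stmn1, 44 each of Birc5 and Pclaf and 35 of Top2a. The large-cluster list was at 8309 CPM in these droplets and at 8504 CPM in the others of the cluster, all of them chosen for being low in that list. In all droplets of the cluster it was at 10198, 10369, 19365 and 15919 CPM, and its part in the cycling share was not tested.

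Cluster 12, with microglia and neutrophil genes, held 2 of 33 and 6 of 20 cycling droplets low in large-cluster RNA in naive 1 and naive 2 (6.06% and 30.0%), and 2 of 16 and 0 of 8 with metastases, the last allowing up to 37.5%. The exact 95% intervals of the naive brains, 0.74 to 20.2% and 11.9 to 54.3%, overlapped. Neutrophil markers moved with the cycle genes here, at 46103 CPM in the 10 cycling droplets against 7930 CPM in the other 67, though 3 of the 10 carried at least 3 neutrophil UMIs, and all 10 carried at least 3 microglia UMIs. Their part in the result was not tested. Clusters 10 and 11 had 15 and 23 droplets low in large-cluster RNA at this depth, of which 0 and 3 were cycling.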

How the data were processed

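UMI counts per gene and cell, surface tag counts, cluster numbers, hashing calls and the percent of mitochondrial UMIs were used as the authors deposited them, per the file headers; the submitters' processing notes name Cell Ranger 3.0.2 and Seurat 3.0.1. Every deposited cell has a call for 1 brain; no doublet caller was run, so droplets with 2 cells of the same brain may remain. Brains were taken from the deposited hashing calls. Counts were summed per brain and tested with edgeR 4.0.16 (TMM, quasi-likelihood, filterByExpr, Benjamini-Hochberg over all genes), with DESeq2 1.42.0 as an alternative, for groups with at least 20 cells in every brain. For phase classes each cell was thinned once with a fixed seed to 2000 UMIs, or 1000 outside the large clusters. The scripts were tested on simulated data. In each test values are given for the members that passed and, whether or not they passed, for Mki67, Top2a, Mcm5, Pcna, Ccnb1, Stmn1 and Hmgb2; beyond the members only the regulator list is named. The members and lists were chosen with earlier results of these data known. Droplets low in large-cluster RNA, and shares without thinning, were added after the data were seen. Intervals cover counting error only.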

Additional observations from a re-analysis of the deposited data

How the results depend on the processing

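The count of members higher with metastases in cluster 6 was 4 and became 6 with RLE scaling, 1 with DESeq2, 0 without the filter on low counts, 0 in droplets without Krt8 or Krt18 UMIs, 0 in droplets low in large-cluster RNA and 2 to 8 with 1 brain left out. In cluster 7 it was 22, and 21, 4, 26, 0, 0 and 9 to 23 under the same alternatives. In cluster 9 it was 2, with 0 in DESeq2, 4 without the filter, 0 in droplets low in large-cluster RNA and 0 to 2 with 1 brain left out. In cluster 11 it was 0, with 1 under RLE and 1 without the filter. The share of all genes called was counted for the main fits and those in low droplets only, so the other counts have no such share beside them. Stmn1 in cluster 6 turned to -0.13 without metastasis 2 (range with 1 brain left out -0.13 to 0.64), and Hmgb2 in cluster 7 to -1.02 in droplets low in large-cluster RNA. In the large clusters, where no member was called, Pcna was -0.043 with DESeq2. With 1 brain left out, the log2 difference ran from -0.33 to 0.12 for Pcna, from -0.12 to 1.15 for Mcm5, from -0.044 to 0.13 for Ccnb1 and from -0.49 to 0.49 for Stmn1. The S-high share became 7.18% at 1000 UMIs, 19.0% at 5000, 17.7% with a minimum of 2 UMIs, 5.72% with 5, 9.42% with Hmgb2 and Stmn1 in the G2/M list and 19.7% without thinning, and the G2/M-high share 34.9%, 69.9%, 61.9%, 40.9%, 67.3% and 71.6%. Placement turned for Pclaf (0.036), Tyms (0.021) and Rrm1 (0.052) at 5000 UMIs, and for Top2a (-0.092), Stmn1 (-0.18) and Tk1 (-0.043) with a minimum of 5. The difference in cycling share was -5.55 points in cluster 2, and 1.85 with a minimum of 5, 5.86 without Krt8 or Krt18 UMIs and 5.70 in low droplets. It was 8.04 in cluster 6 and -0.45 in low droplets, 19.0 in cluster 7 and -0.43 without Krt8 or Krt18 UMIs. In cluster 10 it was 1.70, with -4.05 at 500 UMIs, -0.38 with a minimum of 2, -8.74 without Krt8 or Krt18 UMIs and 0 in low droplets. The S level was 888 CPM without Tk1 and 1001 as the mean of each cell's share, against 1021, and the G2/M level 1964 without Birc5 and 2248 as a mean share, against 2397. The cause of these changes was not tested. Fits without Krt8 or Krt18 UMIs in clusters 9 and 11 and the large clusters, and in low droplets of cluster 11 and the large clusters, were not run, since a brain had under 20 cells. No paired analysis was possible because nothing pairs a naive brain with a brain with metastases. With 2 brains a group and naive brains of far lower depth, small differences could not be seen.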
